A study of Homo sapiens with 6 samples.

Results

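The genes described here are 52 genes of the actin cytoskeleton and of focal adhesions, chosen by name: actins, coronins, monomer-binding and severing proteins, capping proteins, the Arp2/3 complex and its activators, crosslinkers, focal adhesion proteins, ERM linkers, tropomyosins and non-muscle myosin II. All 52 were among the 17918 genes of the deposited table. Their RNA was sequenced in KMS11, an established human myeloma line whose cells stem from plasma cells, the antibody makers of the immune system. Of 6 libraries, 3 were from cells expressing a hairpin that targets CRIP1, a small LIM domain protein (CRIP1 shRNA), and 3 from cells expressing a scrambled hairpin (scramble shRNA), with the genotype labelled WT. The labels list no drug treatment, and they do not say how many hairpins or clones a group stands for.

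Actin exists as monomers and as filaments that grow at one end, called barbed, and shrink at the other. Profilin and beta-thymosins hold monomers, cofilin severs filaments, capping proteins close barbed ends, the Arp2/3 complex starts branches when WASP or WAVE proteins switch it on, and formins start straight filaments. Crosslinkers and tropomyosins shape the filaments, myosin II pulls on them, and talin, vinculin and zyxin tie them to integrins at focal adhesions. In plasma cells and other blood cells this machinery serves migration, adhesion and contact with other cells.

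CRIP1 itself was at 127.14, 128.79 and 134.23 TPM in the CRIP1 shRNA libraries and at 2790.89, 3326.68 and 3173.99 TPM in the scramble libraries, where TPM is a level corrected for transcript length and library total (log2 fold change -4.71, SE 0.06). Library totals were 16971454 to 18005318 estimated counts. Plasma cell markers were present in both groups, with 12 markers summing to 3932 to 4190 TPM in CRIP1 shRNA and 8553 to 9008 TPM in scramble, of which the antibody joining chain gene JCHAIN made up 1789 ± 158 and 6443 ± 223 TPM (SD, n = 3 each). Of the 9 plasma cell markers tested, 6 fell and 3 rose. Red cell markers separated the groups: their summed level over 15 genes was 816.7 to 825.7 TPM in CRIP1 shRNA and 140.9 to 145.7 TPM in scramble, 11 of the 13 tested rose, 1 fell, and 12 of the 15, GATA1 and the fetal globin HBG2 among them, had 0 counts in every scramble library. Epithelial markers summed to 137.4 to 142.3 TPM in CRIP1 shRNA and 13.47 to 16.1 TPM in scramble (10 genes, 6 of 8 tested rose), and myeloid markers to 7.22 to 7.84 TPM and 0.94 to 1.27 TPM (7 genes, 2 of 3 tested rose). Fibroblast and endothelial markers (6.15 to 6.96 TPM in CRIP1 shRNA, 8.42 to 9.26 TPM in scramble; 1 of 4 tested rose and 3 fell) and T and NK cell markers (4.42 to 5.01 TPM and 5.06 to 5.86 TPM; the 1 tested fell) were low in both groups. The part of these markers in the results below was not tested. In bulk RNA a change in the number of cells of a type and a change in RNA per cell cannot be told apart. That holds for markers and members that rose as well as for those that fell. Nothing in the labels ties the replicates to separate cultures. The p-values therefore reflect the spread among these samples alone, and that spread may be technical.

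Most actin and focal adhesion genes fell. Log2 fold changes are CRIP1 shRNA minus scramble from edgeR's quasi-likelihood test on all genes, and a gene counts as changed at an adjusted p under 0.05 over the 12612 genes tested. Of 51 members tested, 34 fell, 14 rose and 3 did not pass the test, while TPM2, the beta-tropomyosin gene, had too few counts to be tested. Across all genes tested, 38.1% fell, 39.4% rose and 77.6% changed either way, so a change in one direction or the other was common among all genes. The members' median log2 fold change was -0.28, against 0.01 for all genes tested. On log2(TPM + 1), tested with limma, all genes sat 0.12 above 0 with 5470 higher and 3450 lower, and the members' median was -0.15 with 15 higher and 27 lower. In 46 of the 51 tested members the TPM ranges of the groups did not overlap, with CRIP1 shRNA lower in 30 and higher in 16, and among all genes tested they did not overlap in 78.5%, lower in 30.3% and higher in 48.2%.

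Together the 52 genes held 2.136%, 2.196% and 2.113% of all TPM in the CRIP1 shRNA libraries and 2.83%, 2.837% and 2.876% in the scramble libraries. The 6 most abundant of them, TMSB4X, TMSB10, MYL6, ACTB, CFL1 and ACTG1, alone held 1.399% to 1.476% in CRIP1 shRNA and 2.001% to 2.038% in scramble. Of these 6 only the myosin light chain gene MYL6 was higher. Among the 27 members with a mean of at least 100 TPM, a limit chosen after the values were seen, 20 fell and 6 rose, where 46.8% of the 1741 genes at that level fell and 38.1% rose. At 2-fold or more, 3 members rose (VCL, RDX and PFN2) and 8 fell (CORO1A, CAPG, ACTN1, WASF1, EVL, PLS3, ACTG1 and MSN), against 10.0% and 8.06% of all genes. That split was 5 and 4 on log2(TPM + 1), where ARPC1A and MYL12B passed 2-fold and WASF1, PLS3, ACTG1 and MSN did not. Tested against a 1.2-fold change, 8 members were higher and 25 lower, and the calls of CORO1B, CAPZA1, CAPZA2, CAPZB, ARPC4, ARPC5, ACTR3, WAS, WASL, WASF2, DIAPH1, TLN1, TPM3, MYH9 and MYL6 were lost.

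**Figure D1:**
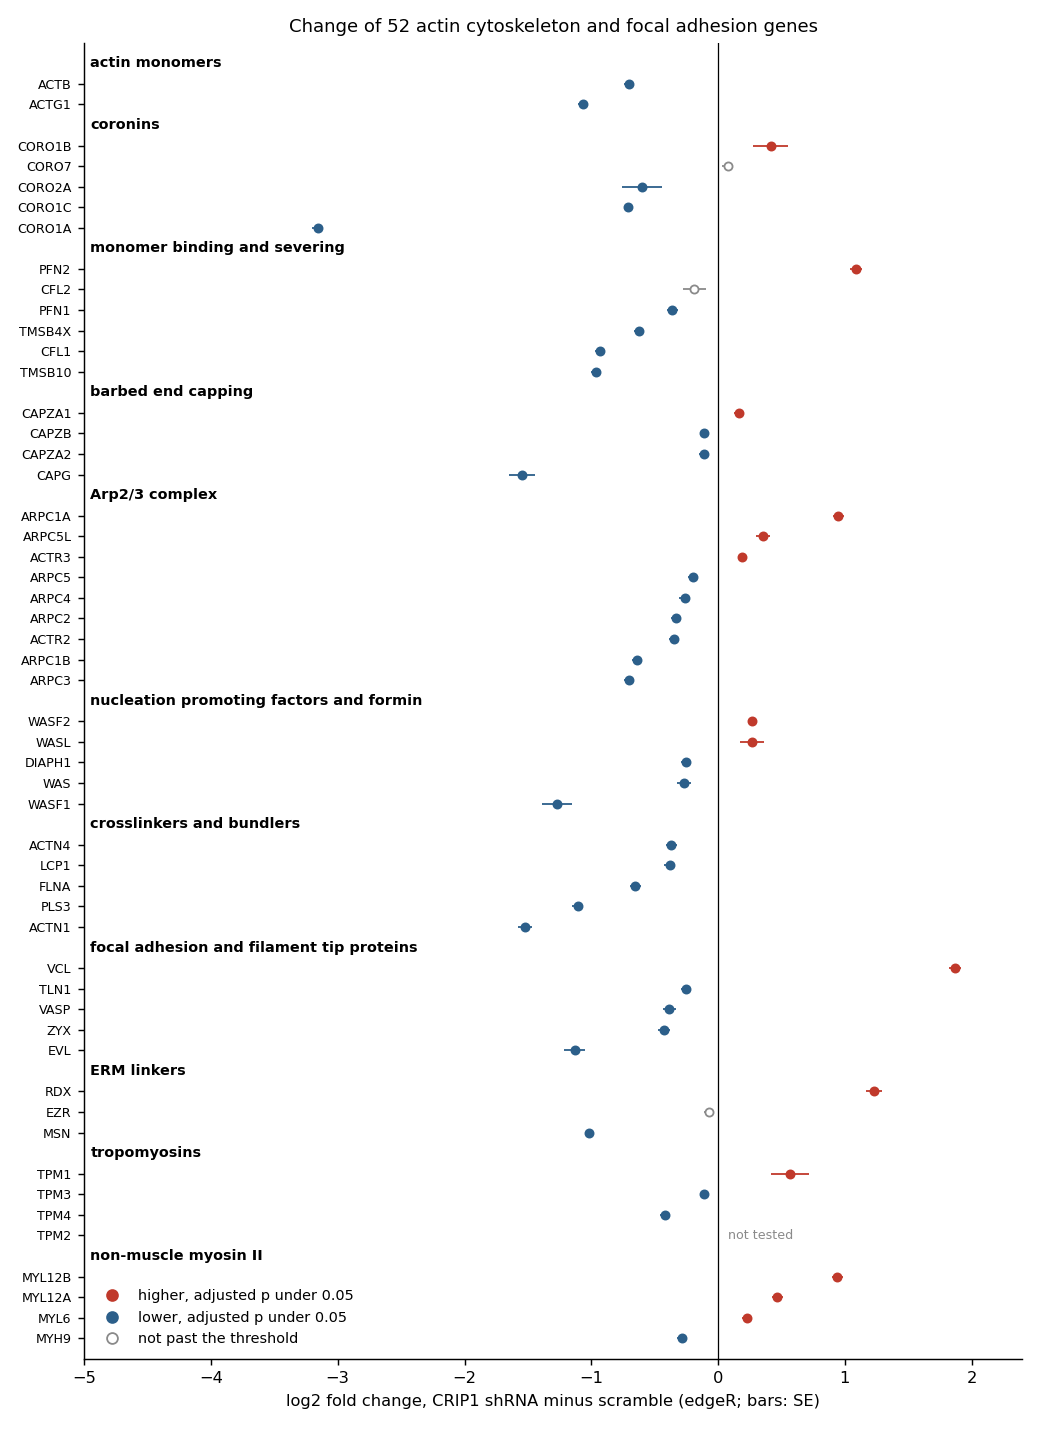
Log2 fold change (CRIP1 shRNA minus scramble, x axis) with its SE for each member, grouped by role, in red where higher, blue where lower and open where the test was not passed. Blue points prevail in most roles, CORO1A lies furthest left at -3.16, VCL furthest right at 1.87, and in myosin II 3 of 4 genes lie to the right.

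Promoter sequence was looked at because many actin genes are known targets of serum response factor (SRF), which binds a DNA element named the CArG box. RefSeq promoter windows (GRCh38.p14, 250 bases before to 50 after the gene start) were matched by symbol for 48 members, all but ACTB, PFN2, ARPC1B and WASF2. Both strands were searched. An exact CArG box was found in 3 of the 48 (6.25%), against 1.29% of 27305 promoters and 0.996% of the 10244 promoters of tested genes. These 3 are the promoters of ACTG1, FLNA and TPM4, and the 140 bases from -190 to -51, counted from the start, are shown 5′ to 3′ on the gene's strand, with the CArG box in capitals. All 3 genes fell, by 1.07, 0.65 and 0.42 on the log2 scale, as did 34 of the 51 members tested and 38.1% of all genes tested. Whether the box has a part in these decreases was not tested. 
ACTG1, minus strand of chromosome 17, chr17:81512850-81512989: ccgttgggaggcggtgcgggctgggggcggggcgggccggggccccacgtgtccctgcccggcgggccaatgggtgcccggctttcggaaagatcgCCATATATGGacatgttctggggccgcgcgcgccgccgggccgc
FLNA, minus strand of chromosome X, chrX:154374685-154374824: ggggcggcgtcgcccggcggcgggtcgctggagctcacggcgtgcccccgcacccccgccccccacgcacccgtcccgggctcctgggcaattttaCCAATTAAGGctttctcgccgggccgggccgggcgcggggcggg
TPM4, plus strand of chromosome 19, chr19:16067348-16067487: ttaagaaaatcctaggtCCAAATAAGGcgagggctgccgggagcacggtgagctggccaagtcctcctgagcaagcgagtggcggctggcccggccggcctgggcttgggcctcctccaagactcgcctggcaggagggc
The boxes lay 94 to 85 bases before the start in ACTG1 and FLNA, and 173 to 164 bases before it in TPM4. The box of FLNA overlaps a CCAAT.

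For the members with the largest decrease and the largest increase, CORO1A and VCL, the 140 bases around the start are shown, with GGGCGG (the GC box of Sp factors) and CCAAT in capitals on either strand. 
CORO1A, plus strand of chromosome 16, chr16:30183512-30183651: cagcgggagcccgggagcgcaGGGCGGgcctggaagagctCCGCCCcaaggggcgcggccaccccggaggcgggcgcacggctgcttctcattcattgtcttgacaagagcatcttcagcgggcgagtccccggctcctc
VCL, plus strand of chromosome 10, chr10:73998026-73998165: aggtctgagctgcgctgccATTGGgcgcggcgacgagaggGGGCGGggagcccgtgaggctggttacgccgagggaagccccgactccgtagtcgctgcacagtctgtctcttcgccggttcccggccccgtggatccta
Over the whole windows, GGGCGG stood in 46 of the 48 members (95.8%), against 70.1% of the promoters of tested genes, CCAAT in 20 (41.7%, against 37.2%) and TATAAA in 1 (2.08%, against 5.66%). GC boxes thus stood in promoters of genes that fell and of genes that rose alike. A match is a description of letters and not of binding.

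Both cytoplasmic actins fell. ACTB, beta-actin (NCBI gene 60, chromosome 7, 5527147 to 5563784, GRCh38), was at 2160.44, 2325.01 and 2205.12 TPM in CRIP1 shRNA and 3283.31, 3265.62 and 3370.44 TPM in scramble (log2 fold change -0.70, SE 0.04, adjusted p = 2.25e-13). ACTG1, gamma-actin (NCBI gene 71, chromosome 17, 81509971 to 81523847), was at 584.19, 634.91 and 622.31 TPM in CRIP1 shRNA and 1176.75, 1182.65 and 1158.41 TPM in scramble (-1.07, SE 0.04, adjusted p = 5.21e-16). Every CRIP1 shRNA library lay below every scramble library for both genes. Gamma-actin's share of the summed actin TPM was 21.6% ± 0.380 in CRIP1 shRNA and 26.2% ± 0.533 in scramble (SD, n = 3 each). The actin coding sequences are much alike. Words of 50 bases were taken from an annotated transcript of each gene (1921 bases for ACTB, 2256 for ACTG1). Of these, 0.534% (ACTB) and 0.453% (ACTG1) occurred in the other gene, and other actin genes were not compared.

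Among coronins, which bind filaments and the Arp2/3 complex, the leukocyte form fell far more than the others. CORO1A (NCBI gene 11151; GENCODE 29 places it at 30182827 to 30189076 of chromosome 16, GRCh38) was at 93.98, 106.53 and 102.47 TPM in CRIP1 shRNA and at 832.08, 812.38 and 819.06 TPM in scramble. The lowest scramble library was far above the highest CRIP1 shRNA library, an 8.93-fold decrease in the fit (-3.16, SE 0.04, adjusted p = 9.14e-22). Over all genes tested, 47 had a lower log2 fold change than CORO1A, CRIP1 among them. An antisense gene that GENCODE 29 places opposite CORO1A shares 541 exon bases with it, and without a stated strand setting its reads cannot be told apart.

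The other coronins changed less than CORO1A and not all in the same direction. CORO1C, a widely expressed form, fell (86.6 ± 2.21 TPM in CRIP1 shRNA, 129 ± 2.26 TPM in scramble, SD, n = 3 each; -0.71, SE 0.04). At low levels CORO2A fell (1.01 against 1.39 TPM; -0.60, SE 0.16) and CORO1B rose (3.10 against 2.12 TPM; 0.42, SE 0.14). CORO7, a Golgi coronin, was at 94.51, 107.63 and 102.33 TPM in CRIP1 shRNA and 87.42, 86.53 and 88.9 TPM in scramble, and did not pass the test (0.08, SE 0.04, adjusted p = 0.118). It passed as an increase under upper-quartile scaling (adjusted p = 0.0182), on log2(TPM + 1) (0.0101), with the GC trend removed (0.00198) and without CRIP1 shRNA replicate 1 (0.00594). CORO7 shares 3293 exon bases with its readthrough gene CORO7-PAM16, which stood at 2.31 against 1.39 TPM.

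The groups also lay apart in the balance of coronin messages. CORO1A made up 34.4% ± 0.881 of the summed coronin TPM in CRIP1 shRNA and 78.9% ± 0.0445 in scramble (SD, n = 3 each). CORO7 took 34.6% ± 0.952 and 8.42% ± 0.133, and CORO1C 29.6% ± 1.77 and 12.4% ± 0.0844. The sum itself was 293 ± 11.2 TPM in CRIP1 shRNA and 1041 ± 12.4 TPM in scramble. A share within 1 library does not depend on how libraries are scaled to each other. Shares were described without a test, since an exact permutation test of 3 against 3 cannot go below p = 0.1.

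**Figure D2:**
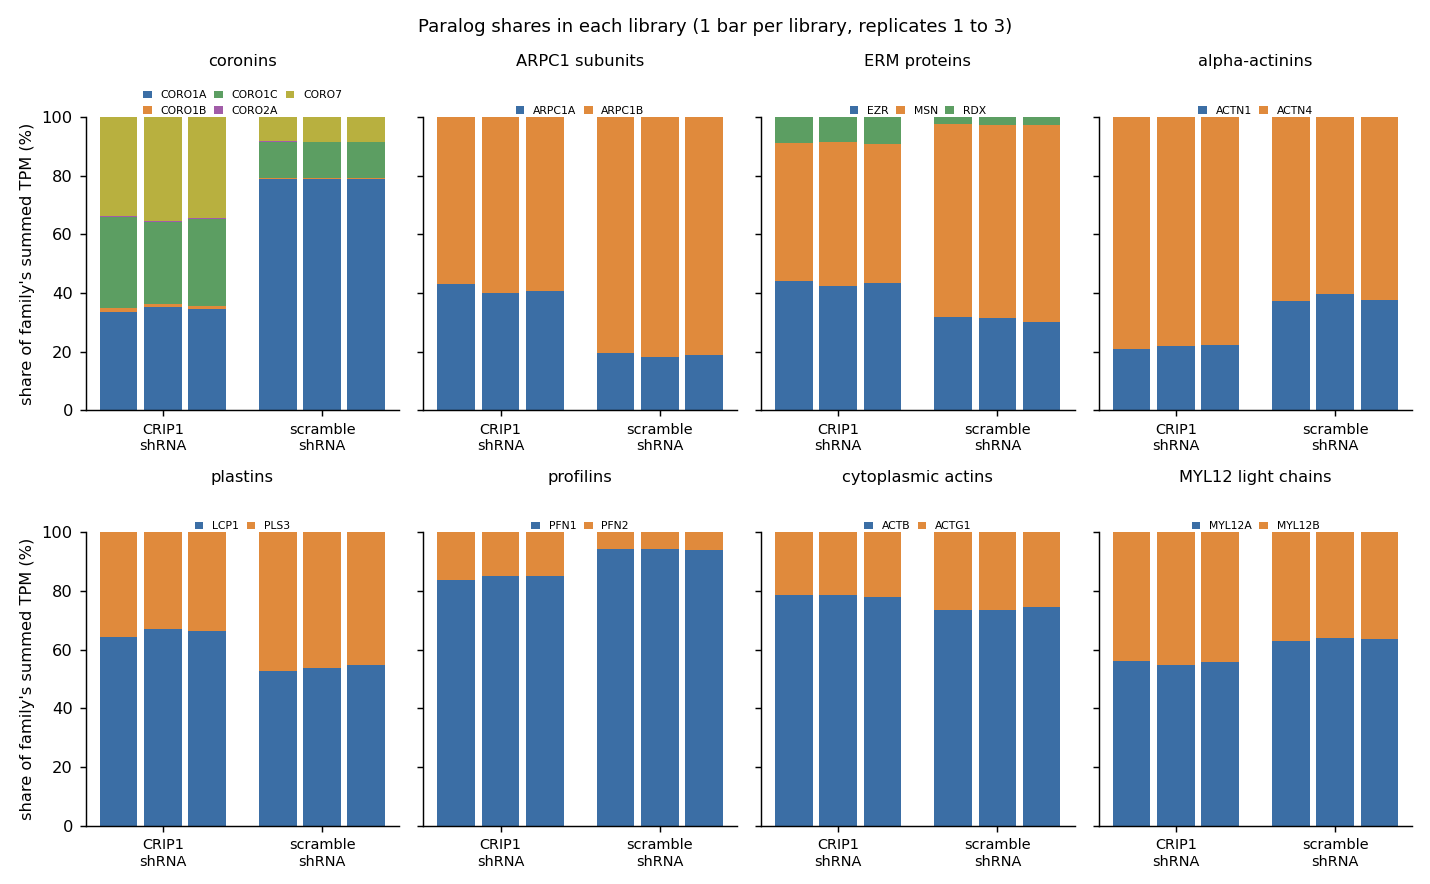
Share of each paralog in its family's summed TPM (y axis, percent), 1 bar per library, CRIP1 shRNA left and scramble right, for 8 families. CORO1A holds 33.5% to 35.2% of coronin TPM in CRIP1 shRNA and 78.8% to 78.9% in scramble, whereas ARPC1A, EZR, RDX, ACTN4, LCP1, PFN2, ACTB and MYL12B hold larger shares in CRIP1 shRNA.

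Both beta-thymosins, the most abundant members, fell. TMSB4X, thymosin beta 4, which sequesters actin monomers, was at 4521.9, 4468.87 and 4090.34 TPM in CRIP1 shRNA and 6028.11, 6140.42 and 6160.11 TPM in scramble (-0.63, SE 0.04, adjusted p = 1.03e-11). TMSB10, its close relative, was at 3286.51, 3385.68 and 3274.41 TPM in CRIP1 shRNA and 5825.46, 5827.85 and 5949.45 TPM in scramble (-0.96, SE 0.04, adjusted p = 1.34e-14). By mean TPM over the 6 libraries these genes ranked 12 and 20 of all genes. TMSB10 held 43.2% ± 1.19 of their sum in CRIP1 shRNA and 49.0% ± 0.256 in scramble (SD, n = 3 each).

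The severing protein cofilin and the main profilin fell while the second profilin rose. CFL1, the non-muscle cofilin, was at 700.2 ± 35.2 TPM in CRIP1 shRNA and 1215 ± 18.4 TPM in scramble (-0.93, SE 0.04). PFN1 fell by 0.36 (SE 0.04). PFN2, a profilin best known from neurons, was at 120.36, 118.19 and 110.27 TPM in CRIP1 shRNA and 44.2, 46.6 and 49.9 TPM in scramble (1.09, SE 0.05, adjusted p = 6.48e-14). The groups did not overlap, and PFN2's share of profilin TPM was 15.4% ± 0.802 in CRIP1 shRNA and 5.88% ± 0.274 in scramble (SD, n = 3 each), a difference of 9.46 percentage points that was 18.4 with shares taken from estimated counts. The muscle cofilin CFL2 was at 6.37 to 6.57 TPM in CRIP1 shRNA and 6.41 to 6.99 TPM in scramble and did not pass the test (-0.19, SE 0.09, adjusted p = 0.0613), but passed as a decrease with the GC trend removed (-0.36, adjusted p = 0.000651). CFL1 shares 759 exon bases with MUS81 on the opposite strand, at 43.7 and 36.5 TPM.

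The subunits of heterodimeric capping protein barely moved, whereas the gelsolin-like capper CAPG fell. CAPG, found in macrophages and other motile cells, was at 11.27, 16.18 and 14.69 TPM in CRIP1 shRNA and 39.29, 37.17 and 36.83 TPM in scramble (-1.55, SE 0.10, adjusted p = 2.75e-11), with no overlap. CAPZB, the beta subunit, was at 307.95, 295.83 and 304.21 TPM in CRIP1 shRNA and 304.6, 284.7 and 294.1 TPM in scramble. Its ranges overlapped, and its decrease of 0.11 (SE 0.04, adjusted p = 0.0113), like that of the alpha subunit CAPZA2 (-0.11, SE 0.04), was positive in sign and uncalled on log2(TPM + 1), and uncalled under upper-quartile scaling (adjusted p = 0.112 and 0.11). CAPZA1 rose by 0.16 (SE 0.04), an increase not called with the GC trend removed (adjusted p = 0.267). Without CRIP1 shRNA replicate 3 or scramble replicate 1, CAPZB lost its call (adjusted p = 0.074 and 0.0546), and CAPZA2 lost it without scramble replicate 2 (0.0888).

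In the Arp2/3 complex 6 of 9 genes fell and 3 rose. ARPC2, a core subunit and the most abundant, was at 494.44, 492.83 and 509.5 TPM in CRIP1 shRNA and 569.8, 581.75 and 574.23 TPM in scramble (-0.34, SE 0.03, adjusted p = 8.84e-09). ARPC3 (-0.70, SE 0.04), the actin-related protein ACTR2 (-0.35, SE 0.04), ARPC4 (-0.26, SE 0.04) and ARPC5 (-0.20, SE 0.03) also fell, although ARPC4 and ARPC5 were not called on log2(TPM + 1) (adjusted p = 0.0583 and 0.17). ACTR3, the other actin-related protein, rose by 0.19 (SE 0.03), with a value of -0.035 once the GC trend was removed. Members of 1 complex therefore did not share a direction, and their log2 fold changes ran from -0.70 to 0.95.

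The members include alternative forms of 2 subunits of the complex, and in each pair the less abundant form rose. ARPC1A was at 199.95, 199.15 and 205.29 TPM in CRIP1 shRNA and 97.11, 93.0 and 94.74 TPM in scramble (0.95, SE 0.04, adjusted p = 1.54e-14). ARPC1B, the form prevalent in blood cells, was at 266.26, 298.14 and 298.14 TPM in CRIP1 shRNA and 402.62, 415.23 and 406.72 TPM in scramble (-0.64, SE 0.04, adjusted p = 2.37e-11). Their sum was 489 ± 19.9 TPM in CRIP1 shRNA and 503 ± 4.49 TPM in scramble, and the ARPC1A share was 41.2% ± 1.47 in CRIP1 shRNA and 18.9% ± 0.567 in scramble (SD, n = 3 each). ARPC5L, the alternative to ARPC5, rose by 0.36 (SE 0.05) and held 28.8% ± 0.301 and 21.8% ± 0.641 of their sum. GENCODE 29 also annotates a gene that shares 1198 exon bases with ARPC1A and 1292 with ARPC1B, so reads of that gene cannot be assigned to either.

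Of the activators and the formin, 3 fell and 2 rose. DIAPH1, a formin, was at 89.64, 93.53 and 89.09 TPM in CRIP1 shRNA and 102.43, 93.75 and 98.7 TPM in scramble (-0.25, SE 0.04, adjusted p = 6.77e-06), a narrow gap that was not called on log2(TPM + 1) (adjusted p = 0.0658). WAS, the blood cell WASP of Wiskott-Aldrich syndrome, fell by 0.27 (SE 0.06), and its widely expressed relative WASL rose by 0.27 (SE 0.09). The WASL call was lost without scramble replicate 1 (adjusted p = 0.097) or 3 (0.0507) and with the GC trend removed (0.184). WASF1, a WAVE protein of brain, fell (2.88 ± 0.298 TPM in CRIP1 shRNA, 6.38 ± 0.454 TPM in scramble, SD, n = 3 each; -1.27, SE 0.12), and WASF2, the main WAVE protein of blood cells, rose (84.4 ± 1.72 and 64.0 ± 1.09 TPM; 0.27, SE 0.03).

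All 5 crosslinkers and bundlers fell, under each scaling tried. FLNA, filamin A, which joins filaments into networks, was at 412.55, 460.3 and 460.18 TPM in CRIP1 shRNA and 643.1, 613.85 and 650.47 TPM in scramble (-0.65, SE 0.04, adjusted p = 5.83e-12). ACTN1, alpha-actinin 1, was at 22.19, 26.19 and 25.24 TPM in CRIP1 shRNA and 63.27, 65.91 and 63.68 TPM in scramble (-1.52, SE 0.05, adjusted p = 6.65e-16). PLS3, the plastin of solid tissues, was at 30.02, 27.92 and 30.0 TPM in CRIP1 shRNA and 58.44, 57.97 and 56.01 TPM in scramble (-1.11, SE 0.05, adjusted p = 9.99e-15). The groups of these 3 genes did not overlap. Their paralogs fell less: ACTN4 by 0.37 (SE 0.04) and LCP1, the leukocyte plastin, by 0.38 (SE 0.04). ACTN1 thus held 21.6% ± 0.714 of alpha-actinin TPM in CRIP1 shRNA and 38.2% ± 1.28 in scramble, and PLS3 34.2% ± 1.35 and 46.1% ± 1.05 of plastin TPM (SD, n = 3 each).

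**Figure D3:**
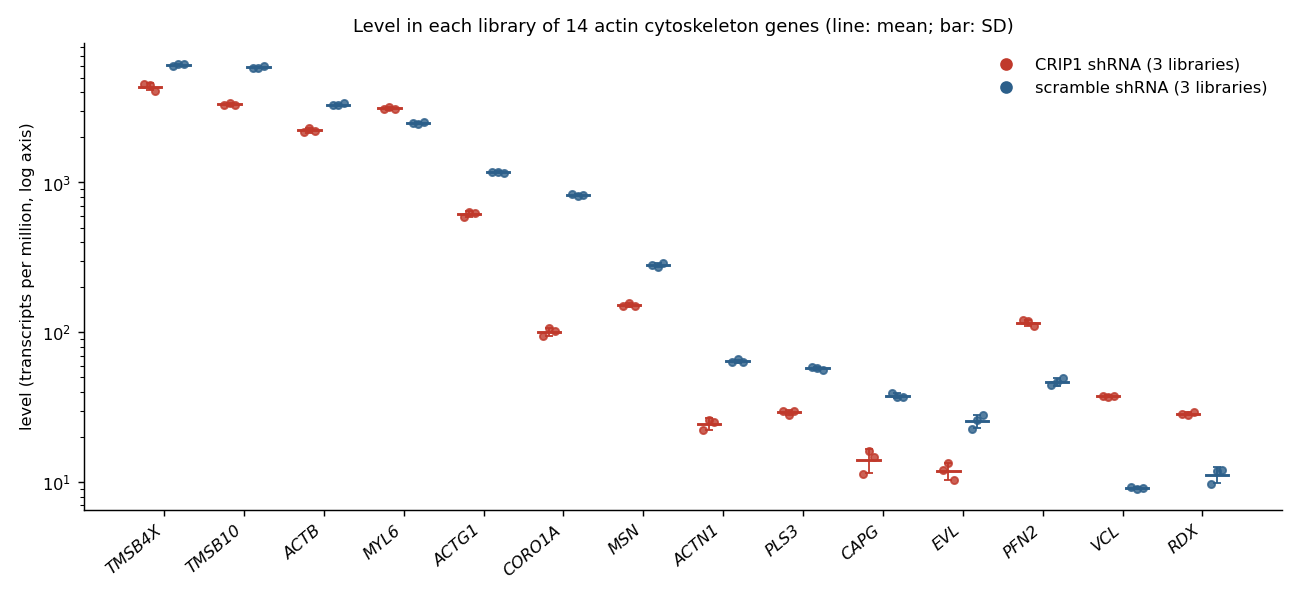
Level of 14 members in each library (TPM, log axis), CRIP1 shRNA left in red and scramble right in blue, with mean lines and SD bars. The groups are apart for every gene shown, as in 78.5% of all genes tested, and the genes shown include members with the largest changes. CORO1A is near 100 TPM in CRIP1 shRNA and above 800 in scramble, and MYL6, PFN2, VCL and RDX are higher in CRIP1 shRNA.

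At focal adhesions vinculin rose while the other 4 proteins fell. VCL, vinculin, which links talin to actin under tension (NCBI gene 7414, chromosome 10, 73995193 to 74121363, GRCh38), was at 37.86, 37.04 and 37.59 TPM in CRIP1 shRNA and 9.27, 9.03 and 9.18 TPM in scramble. Its libraries varied little within each group, a 3.65-fold increase in the fit (1.87, SE 0.05, adjusted p = 3.93e-18). In all genes tested, 551 had a higher log2 fold change than VCL. VCL shares 1109 exon bases with AP3M1 on the opposite strand, which stood at 79.2 against 55.3 TPM, and without a stated strand setting reads there cannot be told apart.

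TLN1, talin 1, which joins integrins to actin, was at 53.17, 56.15 and 57.63 TPM in CRIP1 shRNA and 62.06, 59.98 and 59.34 TPM in scramble (-0.26, SE 0.04, adjusted p = 3.17e-06). The gap between these ranges was small, and the decrease was not called on log2(TPM + 1) (adjusted p = 0.0503). ZYX, the LIM protein zyxin, fell by 0.43 (SE 0.05). VASP, which lengthens filaments at their tips, fell by 0.38 (SE 0.05). EVL, its relative in blood cells, was at 11.99, 13.4 and 10.36 TPM in CRIP1 shRNA and 22.72, 25.91 and 28.07 TPM in scramble (-1.13, SE 0.08, adjusted p = 8.61e-11), with no overlap. EVL held 22.4% ± 2.18 of the sum of the pair in CRIP1 shRNA and 34.2% ± 1.96 in scramble (SD, n = 3 each).

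The ERM proteins, which anchor filaments to the plasma membrane, went 3 ways. MSN, moesin, the main ERM protein of leukocytes, was at 149.18, 157.05 and 149.36 TPM in CRIP1 shRNA and 279.5, 271.05 and 288.97 TPM in scramble (-1.02, SE 0.04, adjusted p = 1.06e-15). RDX, radixin, was at 28.55, 27.99 and 29.43 TPM in CRIP1 shRNA and 9.67, 11.91 and 12.1 TPM in scramble (1.23, SE 0.06, adjusted p = 4.28e-13). EZR, ezrin, an ERM protein of epithelia, was at 136.81 to 139.59 TPM in CRIP1 shRNA and 130.45 to 134.65 TPM in scramble and did not pass the test (-0.07, SE 0.03, adjusted p = 0.0621), but passed as a decrease with no filter on low counts (0.0397). The fitted sign of EZR is opposite to that of its TPM values, a scale on which the median of all genes is 0.12. Moesin's share of ERM TPM was 47.7% ± 0.957 in CRIP1 shRNA and 66.1% ± 0.744 in scramble, and radixin's 9.01% ± 0.312 and 2.65% ± 0.325 (SD, n = 3 each).

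Tropomyosin genes, whose symbols TPM1 to TPM4 should not be read as the unit, changed modestly. TPM3, the most abundant, was at 777.27, 780.09 and 750.8 TPM in CRIP1 shRNA and 740.43, 753.58 and 773.87 TPM in scramble. These ranges overlapped, and its decrease of 0.11 (SE 0.03, adjusted p = 0.00416) was positive in sign and uncalled on log2(TPM + 1), uncalled under upper-quartile scaling (adjusted p = 0.0634), and lost its call without CRIP1 shRNA replicate 3 (adjusted p = 0.0523). TPM4 fell (203 ± 4.14 TPM in CRIP1 shRNA, 242 ± 5.86 TPM in scramble; -0.42, SE 0.03) and TPM1 rose at a low level (9.18 ± 0.434 TPM in CRIP1 shRNA, 5.45 ± 1.38 TPM in scramble; 0.57, SE 0.15; SD, n = 3 each). TPM2 had 6, 7 and 4 estimated counts in CRIP1 shRNA and 4, 2 and 6 in scramble, too few to show a difference at this depth.

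In non-muscle myosin II the light chain genes rose and the heavy chain gene fell. MYL6, the essential light chain, was at 3089.66, 3207.75 and 3099.21 TPM in CRIP1 shRNA and 2505.16, 2450.0 and 2517.83 TPM in scramble (0.22, SE 0.04, adjusted p = 9.2e-06). The regulatory light chain genes rose as well, MYL12B to 327 ± 12.4 TPM in CRIP1 shRNA, against 155 ± 3.36 TPM in scramble (0.94, SE 0.04), (SD, n = 3 each), and MYL12A to 403.14 to 412.32 TPM in CRIP1 shRNA, against 256.27 to 276.02 TPM in scramble (0.47, SE 0.04). MYH9, the heavy chain IIA, was at 221 ± 6.94 TPM in CRIP1 shRNA and 244 ± 11.7 TPM in scramble (-0.28, SE 0.04). Tested against a 1.2-fold change, MYL6 (adjusted p = 0.837) and MYH9 (0.209) lost their calls, and only the regulatory light chain genes kept theirs in this role. MYL12A and MYL12B share 6.44% and 6.33% of their 50-base words, the highest share among the families, so how reads were split between them is uncertain. MYL6 shares 89 exon bases with MYL6B, which fell (97.7 against 134 TPM), and 514 with SMARCC2 on the opposite strand.

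**Figure D4:**
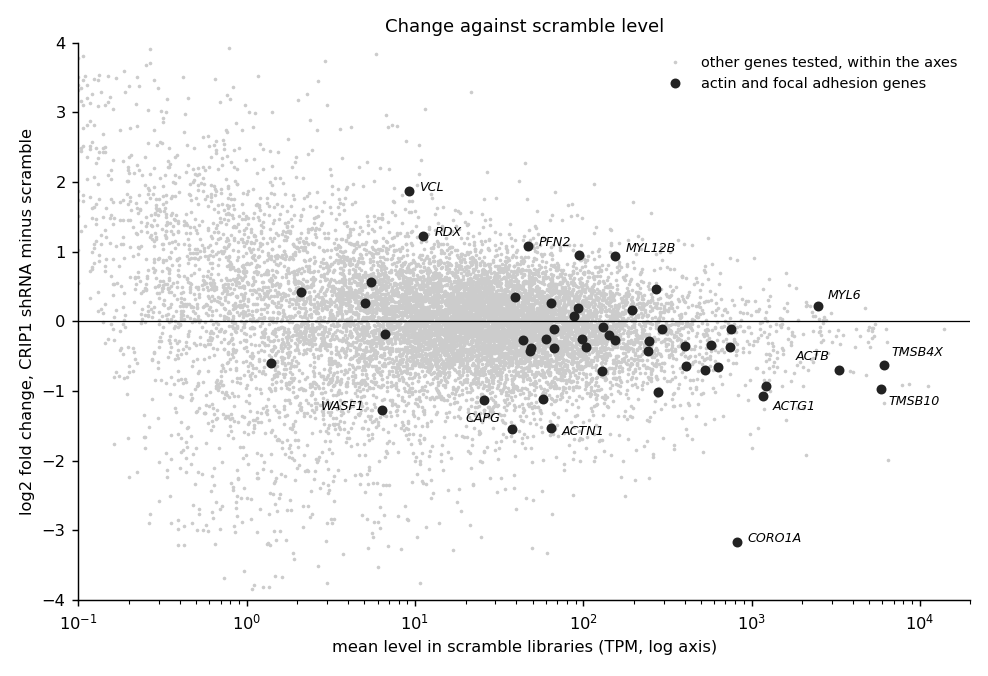
Log2 fold change (y axis, CRIP1 shRNA minus scramble) against mean scramble level (x axis, TPM, log scale), with members in black over 12210 other tested genes in grey. The y axis is cut at -4 and 4. Other genes beyond these limits or below the left end of the x axis, including those without scramble TPM, are not drawn. Most members above 100 TPM lie below 0, MYL6 is the exception among the most abundant, and CORO1A lies lowest of the members at -3.16.

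The members' log2 fold changes were weakly correlated with their scramble level and base composition. Over the 51 tested members, Spearman's rank correlation with the scramble TPM was -0.295, against -0.242 over all 12612 genes tested, and with transcript GC content -0.307, against -0.153 over the 12546 genes with a value. The scramble level is also the base of the fold change, which by itself can pull the correlation with level below 0. That correlation therefore cannot show whether the change depends on level. These are descriptions across genes of the same 6 libraries. With the GC trend of each library removed, 12 members rose and 35 fell, and the median stayed at -0.28 while that of all genes was -0.03.

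Lists of related genes were read against the same background of 39.4% higher and 38.1% lower. WAVE and WASP partners and formins were divided, with 12 higher and 11 lower of 29, or 9 and 12 with the GC trend removed, and 13 and 7 on log2(TPM + 1). NCKAP1, a WAVE complex subunit, rose to 28.2 ± 0.822 TPM in CRIP1 shRNA, against 5.18 ± 0.408 TPM in scramble (2.29, SE 0.07; SD, n = 3 each, as in the lists that follow), and the formins FMNL3 (-1.48, SE 0.06) and FMNL2 (-1.17, SE 0.06) fell. Focal adhesion adaptors and kinases had 6 higher and 13 lower of 28, or 7 and 10 of 23 on log2(TPM + 1). Their median log2 fold change was -0.11, and 0.001 on log2(TPM + 1), where that of all genes was 0.12. LPXN, leupaxin, a paxillin relative of blood cells, was at 62.0 ± 2.46 TPM in CRIP1 shRNA and 206 ± 4.22 TPM in scramble (-1.84, SE 0.04), PTK2B, the kinase PYK2, fell (-0.99, SE 0.05), the integrin ITGA4 fell (-0.82, SE 0.04), and the fibronectin receptor chain ITGA5 rose (3.91, SE 0.21). Of myosins and their regulators, 9 rose and 12 fell of 22, or 8 and 7 on log2(TPM + 1), with MYO1F (-2.00, SE 0.09), MYO18A (-0.88, SE 0.06) and MYO9B (-0.77, SE 0.05) lower.

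LIM domain partners of actin, the class to which CRIP1 is related, had 9 higher and 7 lower of 21. FHL1 was at 11.6 ± 0.773 TPM in CRIP1 shRNA and 56.8 ± 1.37 TPM in scramble (-2.43, SE 0.06), LASP1 fell (-0.74, SE 0.03), TES, testin, rose (1.46, SE 0.04), and TRIP6, a zyxin relative, rose (2.75, SE 0.22). Other severing, capping and bundling genes had 16 higher and 12 lower of 33, or 13 and 13 with the GC trend removed. GMFG, which removes Arp2/3 branches in blood cells, was at 102.12 to 109.98 TPM in CRIP1 shRNA and 331.41 to 358.22 TPM in scramble (-1.84, SE 0.06), while FLNC, a filamin of muscle (3.95 ± 0.320 TPM in CRIP1 shRNA, 0.0267 ± 0.00577 TPM in scramble), rose where FLNA fell. SRF and YAP factors and their common targets had 5 higher and 7 lower of 12, and 7 and 6 on log2(TPM + 1) with no filter. SRF fell (17.43 to 19.03 TPM in CRIP1 shRNA, 23.38 to 24.76 TPM in scramble; -0.56, SE 0.05), TEAD3 fell (-1.53, SE 0.15), and ACTA2, smooth muscle actin, rose to 33.3 ± 3.51 TPM in CRIP1 shRNA, against 4.18 ± 0.309 TPM in scramble (2.79, SE 0.11).

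The red cell membrane skeleton, a spectrin and actin lattice, had 7 higher and 4 lower of 12. The ankyrin ANK1 (3.10 ± 0.242 TPM in CRIP1 shRNA, 0.00333 ± 0.00577 TPM in scramble) and STOM (1.39, SE 0.05) rose, and RHAG, at 29.8 ± 3.38 TPM in CRIP1 shRNA, had 0 counts in scramble. Beside it, the red cell marker HBG2 was at 185 ± 5.22 TPM in CRIP1 shRNA and 0 TPM in scramble.

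**Figure D5:**
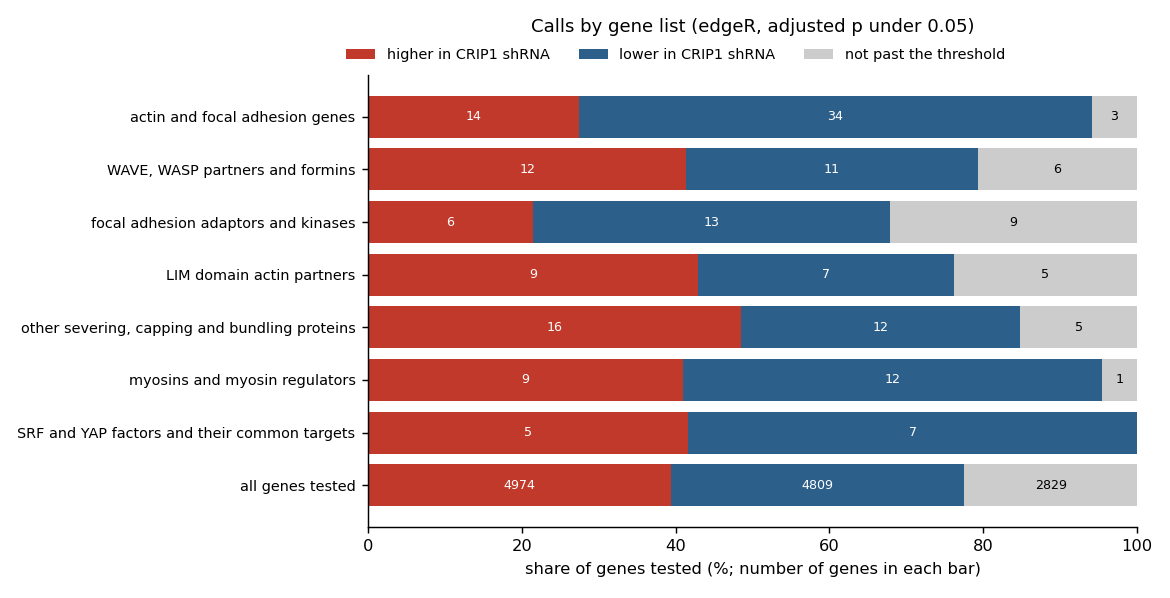
Share of tested genes that were higher (red), lower (blue) or not past the threshold (grey) in each gene list, with the number of genes in each bar and all genes tested at the bottom. The 52 actin and focal adhesion genes at the top have 34 lower and 14 higher, against 4809 lower and 4974 higher of all genes.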

How the data were processed

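Sample titles gave each library's group and number. Per the labels' protocols, total RNA was extracted with TRIzol and libraries were made with a SMARTer mRNA kit. Per the file headers, the authors deposited estimated counts (each an expected count that need not be whole) together with FPKM and TPM values per gene and library. FPKM and TPM values were used as deposited. Per the submitters' processing notes the tools include HISAT2 2.1.0, Bowtie2 2.2.5 and RSEM 1.2.8, with the build GRCh38.p13, without roles or order; the annotation and strand setting are not given in the sources used here.

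Estimated counts were rounded and tested over all genes with edgeR 4.0.16 in R 4.3.3 (filterByExpr by group with a minimum count of 10, TMM scaling, quasi-likelihood F test, group alone), with Benjamini-Hochberg adjustment over 12612 genes and a threshold of 0.05. Each SE was taken from the log2 fold change and the root of F. The test was also run on simulated counts in which 200 genes were changed. In the data 77.6% of genes tested changed, so that run does not show how the scaling behaves here. Libraries of 1 group differed by more than sampling noise (mean chi-square per gene 1.62 to 4.15, against 99.3 to 104 between groups), and none was counted as a repeat. The common biological coefficient of variation was 3.34%. GENCODE 29 (GRCh38) gave gene positions, exon overlaps, transcript GC content and 50-base words, and RefSeq the promoters.

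The members and lists were chosen with earlier results of these data known, so no list was tested. Values in every library are given by rule for the 2 actins, the 8 called members of largest change with a mean of at least 10 TPM, the 4 most abundant members and the most abundant of each role. Outside that rule they are also given for CRIP1, CORO7, ARPC1A and ARPC1B, and as counts for TPM2. Of each list the 3 genes of smallest adjusted p are named, with the called gene of largest change at a mean of at least 1 TPM; some of these results are not reported here. Alternatives were the replicate number as a block, 2 other scalings, the DESeq2 1.42.0 Wald test, other filters, limma 3.58.1 on log2(FPKM + 1), log2(TPM + 1) and log2(TPM + 0.1), a test against a 1.2-fold change, a loess fit of each library on GC content (span 0.5, centred on its median) and each library left out.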

Additional observations from a re-analysis of the deposited data

How the results depend on the processing

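Of the 51 members tested, 32 kept direction and call under all 18 alternatives, and all 32 were called changes. CORO2A kept them under the 17 that gave it a value, log2(FPKM + 1) being the one without. The members higher and lower numbered 14 and 34, and 13 to 15 and 32 to 34 with each library left out. Against a 1.2-fold change 8 were higher and 25 lower. Past 2-fold, 5 members were higher and 4 lower on log2(FPKM + 1) and on log2(TPM + 1), with or without a filter, and 5 of each on log2(TPM + 0.1), against 3 and 8. All genes at 2-fold or more were 562 higher and 428 lower on log2(FPKM + 1), 826 and 470 on log2(TPM + 1), 471 lower there without a filter, 665 lower on log2(TPM + 0.1), and 763 higher with at least 50 counts in 3 libraries. The stricter filter tests fewer genes; the cause of the other moves was not tested.

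Signs turned for genes with small changes. On log2(TPM + 1), with or without a filter, CAPZA2 was 0.024, CAPZB 0.040, EZR 0.062 and TPM3 0.025. On log2(TPM + 0.1) they were 0.024, 0.040, 0.063 and 0.025, and EZR was 0.016 on log2(FPKM + 1). ACTR3 was -0.035 with the GC trend removed. The myeloid marker ITGAM (0.04, not called) was below 0 without CRIP1 shRNA replicate 2, scramble replicate 1 or scramble replicate 3, and ran from -0.029 to 0.17 with each library left out. Shares from estimated counts, not divided by length, differed between groups by -42.2 percentage points for CORO1A, 18.4 for PFN2 and 7.89 for RDX, against -44.5, 9.46 and 6.35 from TPM.

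CRIP1 kept its call throughout, at -4.79 to -4.56. The replicate numbers did not pair the libraries: deviations of same-numbered libraries correlated at -0.0135 to 0.0455, and 2 of 6 libraries correlated best with their own number. With the replicate block 14 members were higher and 34 lower, as without it. Depth limits the 7 members under 10 TPM in both groups.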
